A study of Mus musculus with 6 samples.

Results

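The GFP-high nuclei of the Foxr2 alone library were 134 of the 10063 nuclei of Foxr2 alone replicate 1 that had at least 500 UMIs (unique molecular identifiers, each standing for 1 captured RNA molecule) and at most 5% of them from mitochondrial genes. They were chosen by their GFP RNA, at least 3 UMIs in a nucleus. The nuclei set against them had 0 UMIs of GFP, Akaluc and Foxr2, and 9132 nuclei met that condition. Across the 3 libraries of the series there were 22125 nuclei. GFP itself chose the members, and the absence of all 3 vector genes chose the nuclei they were compared with, so the levels of these genes are descriptions.

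All libraries came from brains of C57BL/6J mice in which plasmids had been electroporated in utero into progenitors of the ganglionic eminence, and all were given Foxr2 overexpression. The Foxr2 plasmid (V5-tagged) and a co-delivered Akaluc luciferase plasmid each carried GFP behind a PQR peptide, both as piggyBac transposons that a transiently expressed transposase inserts into the genome. Foxr2 p53LOF also received a CRISPR vector against p53, and its library is used here only beside the members. Age at collection was not given in the sources used here, each library was labelled brain tumor, and because GFP is carried by both transposons it does not by itself mark a nucleus that holds the Foxr2 vector.

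The ganglionic eminences are the ventral zones of the embryonic forebrain. Their progenitors are known to give rise to the projection neurons of the striatum and to the interneurons of striatum and cortex, and later to glia, while cortical glutamatergic neurons come from the dorsal zone, the pallium. Foxr2 is a forkhead transcription factor with little activity in the normal brain, and its gain drives a group of central nervous system neuroblastomas. A piggyBac insertion is passed to daughter cells, whereas plasmid that is not inserted is diluted as cells divide.

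Foxr2 (ENSMUSG00000071665) lies on mm10 chromosome X, X:153118786-153132861, on the plus strand. RNA of the transgene and of the endogenous gene cannot be told apart. The start of its coding sequence by the GENCODE annotation is X:153130135-153130284. Its bases are printed from the RefSeq genome sequence of GRCm38.p6, with the start codon in capitals, because this stretch marks where the libraries differed in chromatin peaks.

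Foxr2 coding start: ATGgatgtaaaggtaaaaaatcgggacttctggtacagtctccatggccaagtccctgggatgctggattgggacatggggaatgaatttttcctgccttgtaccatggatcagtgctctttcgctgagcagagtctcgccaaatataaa

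In Foxr2 p53LOF replicate 1, a peak at X:153130170-153131097 began within this stretch, and in Foxr2 alone replicate 2 a peak at X:153130193-153131057 did. Foxr2 alone replicate 1, the library of the 134 members, had 135201 peaks, of which 0 overlapped the Foxr2 gene and 0 lay on vector sequences. Peaks were called per library, so chromatin of the vectors could not be read in the members. The nearest peak on that side, X:153139531-153140385, lay 6670 bases past the end of the gene and had counts in 14 members (10.4%, 95% interval 5.83 to 16.9) and in 162 of 1340 matched nuclei (12.1%, 10.4 to 13.96).

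GFP and the other vector genes were read as follows. The members held from 3 to 147 GFP UMIs, with a median of 4.5, and 997 of the 1734 GFP UMIs in the library. Only 16 members had 10 or more, 7 had 20 or more and 2 had 50 or more. Nuclei at the threshold were the commonest, 46 with exactly 3 UMIs, and just outside it were 118 nuclei with 2 UMIs and 501 with 1. In nuclei with 3 GFP UMIs, 17.4% had a Foxr2 UMI and 39.1% an Akaluc UMI. In those with 2 the shares were 11.9% and 32.2%. The threshold therefore passed through a continuous range of GFP counts.

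Akaluc, the luciferase used for imaging, had 226 UMIs in 76 members (56.7%, 47.9 to 65.2), at most 34 in a nucleus. Foxr2 had 91 UMIs in 51 members (38.1%, 29.8 to 46.8), at most 20 in a nucleus. Both were found in 33 members, either of them in 94 and neither in 40. Summed over members, GFP stood at 765 CPM (a count scaled to a group total of 1000000), Akaluc at 173 and Foxr2 at 69.8 [56.2, 85.7], with exact Poisson intervals in brackets. The member with the most GFP, a nucleus of the astrocyte-like class that was called a doublet (2 nuclei sharing a barcode), held 147 GFP, 34 Akaluc and 20 Foxr2 UMIs, and gave 22.0% of the Foxr2 UMIs. All intervals here are at 95% and cover counting error only, because the counts used here are of 1 Foxr2 alone library and nuclei are not replicates. No test was made for that reason.

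Foxr2 and Akaluc were then compared after each nucleus was thinned to 1000 UMIs. Among the 128 members deep enough for this, 7.81% kept a Foxr2 UMI and 24.2% an Akaluc UMI (38.1% and 56.7% unthinned). For the 587 nuclei with 1 or 2 GFP UMIs, the thinned shares were 1.36% and 4.09%, and for 8210 nuclei with 0 they were 0.158% and 0.365%. Between 1 and 3 GFP UMIs the thinned counts gave no order for Foxr2, which was found in 7 of 477 nuclei with 1 GFP UMI (1.47%, 0.592 to 3.00), 1 of 110 with 2 (0.909%, 0.0230 to 4.96) and 0 of 43 with 3, which allows a share of up to 6.98% at 3 counts of the total and 8.22% by the exact interval. The thinned Akaluc shares in these sets were 3.56%, 6.36% and 11.6%, with overlapping intervals. Thinning left out 6 members, 32 nuclei with 1 or 2 GFP UMIs and 1100 nuclei with 0. Unthinned, these 3 sets had medians of 6780, 6639 and 4647 UMIs. GFP and the gene before it are read from 1 transcript, so these genes are not separate readouts of delivery. In immune-like nuclei, a class that does not come from the targeted progenitors, 2.68% of 410 thinned nuclei had a GFP UMI (1.35 to 4.75, and 4.66% unthinned, with a median of 1260 UMIs). Unthinned, 0.358% of immune-like nuclei had a Foxr2 UMI and 1.43% an Akaluc UMI. The thinned GFP share was 7.58% (5.62 to 9.95) in astrocyte-like, 3.70% (1.61 to 7.17) in OPC-like (oligodendrocyte precursor cell), 3.23% (2.53 to 4.05) in oligodendrocyte-like, 2.19% in striatal projection-like, 1.14% in GABAergic interneuron-like and 1.01% in cortical glutamatergic-like nuclei. The last 3 shares lay under that of the immune-like nuclei and the intervals of the OPC-like and oligodendrocyte-like shares overlapped with it, so 1 GFP UMI is not read as expression in these 5 classes. Striatal projection-like and cortical glutamatergic-like nuclei were deeper than the immune-like ones before thinning (medians of 6491.5 and 10670 UMIs). Called doublets were 20.8% of the immune-like nuclei and 159 of the 621 astrocyte-like ones, and these shares were not read without them. At that lower depth 0 of 558 immune-like nuclei reached 3 UMIs, which allows a share of up to 0.538% at 3 counts of the total and 0.659% by the exact interval.

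**Figure D1:**
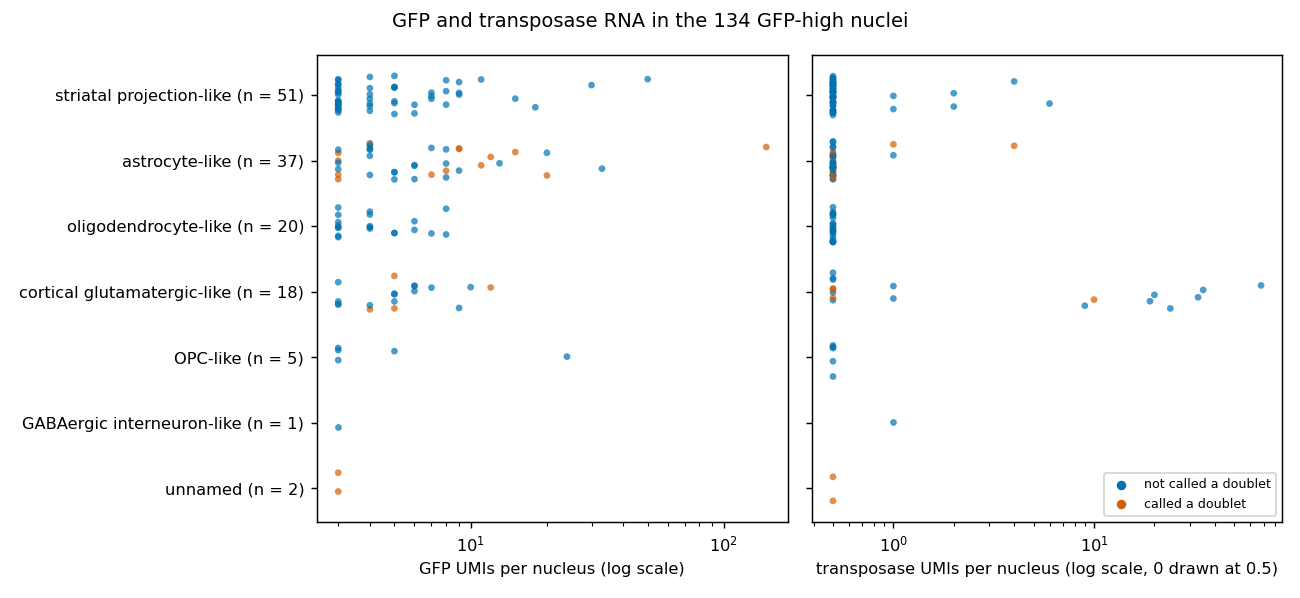
GFP UMIs (left) and piggyBac transposase UMIs (right) of each of the 134 GFP-high nuclei, 1 point per nucleus, by class, on log axes with 0 drawn at 0.5. GFP was highest in astrocyte-like and striatal projection-like nuclei (147 and 50 UMIs), while counts of 9 to 68 transposase UMIs were found in cortical glutamatergic-like members, 10 of whose 18 had a transposase UMI.

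The members fell into several classes of brain cell and did not form 1 cell type. Clusters were made without the vector genes and without the listed markers, and named from the markers. The largest group was striatal projection-like, 51 members (38.1% of members, 29.8 to 46.8), followed by 37 astrocyte-like (27.6%), 20 oligodendrocyte-like (14.9%), 18 cortical glutamatergic-like (13.4%), 5 OPC-like, 1 GABAergic interneuron-like and 2 in unnamed clusters. These classes made up 26.9%, 6.17%, 31.7%, 19.6%, 2.15%, 4.37% and 3.56% of all nuclei. As a share of its class, GFP-high nuclei were 5.96% [4.23, 8.12] of astrocyte-like, 2.31% [0.756, 5.32] of OPC-like, 1.88% [1.41, 2.47] of striatal projection-like, 0.913% [0.542, 1.44] of cortical glutamatergic-like, 0.627% [0.383, 0.966] of oligodendrocyte-like and 0.227% [0.00575, 1.26] of GABAergic interneuron-like nuclei. Oligodendrocyte-like nuclei were shallow, at a median of 1176.5 UMIs against 6491.5 in striatal projection-like and 10670 in cortical glutamatergic-like nuclei, so a threshold of 3 UMIs takes fewer of them at the same GFP level. In CPM, GFP was 159 in astrocyte-like, 73.1 in OPC-like, 56.4 in oligodendrocyte-like, 28.7 in striatal projection-like, 18.99 in immune-like, 10.4 in cortical glutamatergic-like and 5.39 in GABAergic interneuron-like nuclei, an order in which oligodendrocyte-like nuclei stood above striatal projection-like ones. Of the 54 GFP UMIs of OPC-like nuclei, 24 came from 1 nucleus, so their place in this order rests on it. In astrocyte-like nuclei, 147 of 552 came from 1 called doublet.

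Called doublets made up 20 members (14.9%) and 9.01% of all nuclei, and they were 16.3% and 12.5% of the vector-negative nuclei with which the members are compared further on, matched on UMIs and neuronal share or taken from the same cluster. They were unevenly spread, with 14 among the 37 astrocyte-like members, 4 among the 18 cortical glutamatergic-like ones, both unnamed ones and 0 in the striatal projection-like, oligodendrocyte-like and OPC-like members. At a finer clustering (resolution 1.0 in place of 0.5), 13 members, each called a doublet, moved into a cluster of 144 nuclei, 79.9% of them called doublets, that was led by S100a9, Saa3, S100a8 and Ngp, genes known from neutrophils and the acute phase. Without called doublets, 20.2% of members were astrocyte-like. A further 3 astrocyte-like members lay in a cluster of 17 nuclei led by Myoc, Aldoc, Gfap and mitochondrial genes, with a median of only 233 peak counts.

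Among striatal projection-like nuclei, 41 members lay in a cluster of 2232 and 10 in a cluster of 474 led by Otof, Gpr149 and Tac2. In the first, the Drd1 list (direct-pathway neurons) was higher than the Drd2 list (indirect-pathway neurons) in 19 members and the Drd2 list was higher in 21, near the split of the 410 nuclei compared with them, 193 and 211. The finer clustering divided this cluster another way. A cluster of 1369 nuclei with Adora2a, Scn4b and Rerg among its 10 leading genes held 40 members (2.92%, 2.10 to 3.96), and a cluster of 858 with Drd3, Prkch, Wfs1 and Syt10 among its own held 1 (0.117%). GFP stood at 38.7 CPM in the first and 7.50 CPM in the other. Among cortical glutamatergic-like nuclei, the cluster led by Ntng1 and Fyb2 had 5 members among 125 nuclei (4%), while the cluster led by Trabd2b and Zfpm2 had 0 among 469.

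**Figure D2:**
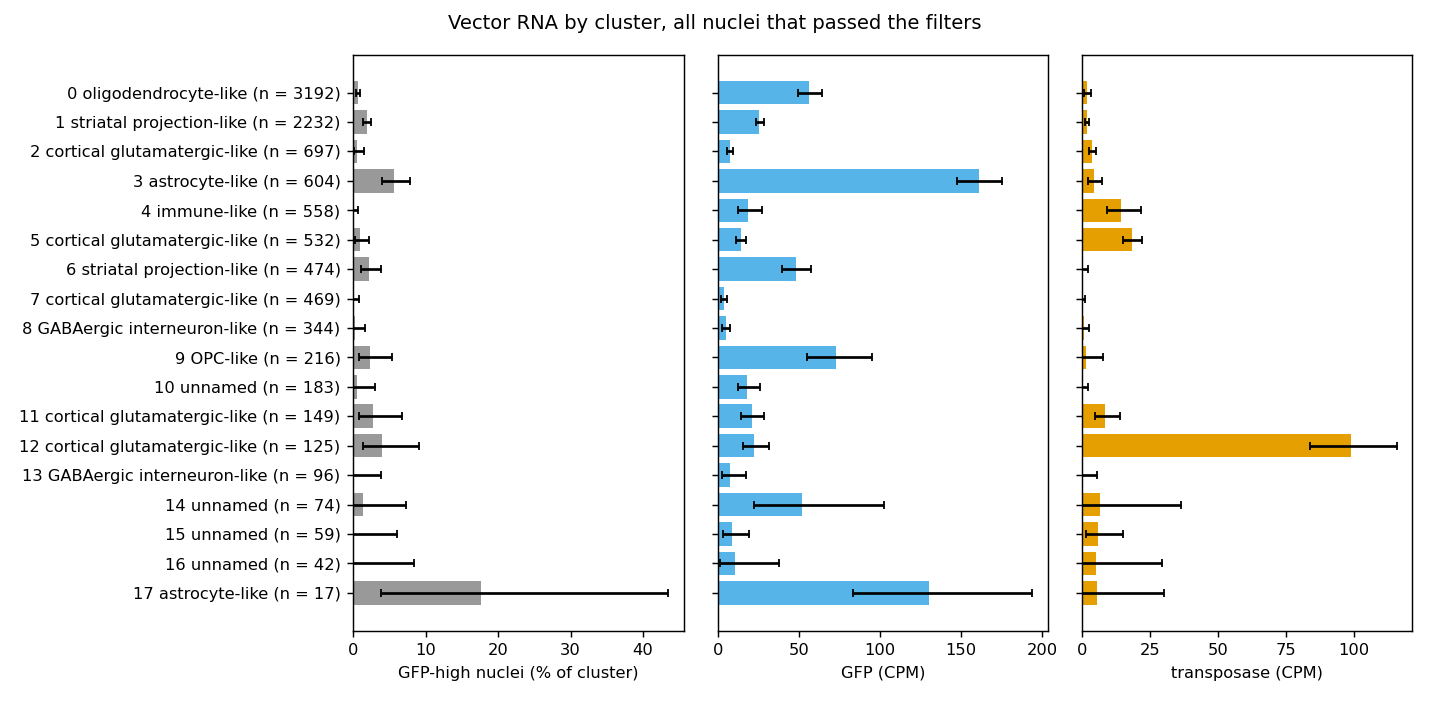
Share of nuclei that were GFP-high, GFP in CPM and piggyBac transposase in CPM for each of the 18 clusters of all 10063 nuclei, with exact 95% intervals for counting error. GFP was highest in astrocyte-like cluster 3 (161 CPM), whereas transposase was highest in cortical glutamatergic-like cluster 12 (98.7 CPM). Of the 528 GFP UMIs of cluster 3, 147 were in 1 called doublet.

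RNA of the piggyBac transposase, the enzyme that inserts the transposons and that was meant to be expressed only transiently, was read in 20 members, which held 243 UMIs (186 CPM [164, 211]) against 12 UMIs in the 1340 matched nuclei (1.02 CPM). The cortical glutamatergic-like members had 220 of the 243 UMIs (744 CPM), in 10 of 18 nuclei, with 68, 35, 33, 24, 20, 19, 10 and 9 UMIs in the 8 highest. Oligodendrocyte-like and OPC-like members had 0. Over the whole library, 24 nuclei had 3 or more transposase UMIs, 18 of them cortical glutamatergic-like, 11 of them GFP-high and 4 with 0 GFP UMIs. The nucleus with 68 transposase UMIs had 5 of GFP, 7 of Akaluc and 0 of Foxr2. By cluster, transposase RNA stood at 98.7 CPM in the cluster led by Ntng1, at 18.3 CPM in cortical glutamatergic-like cluster 5 and at 1.76 CPM in the larger striatal cluster. The cluster led by Ntng1 had 7 of 12 cortical markers at 2-fold or more, against 10 or 11 in the other clusters of its class. Immune-like nuclei had 14.4 CPM, but 21 of their 22 UMIs came from 1 called doublet. So the class with the most transposase RNA was not the class with the most GFP RNA. In Foxr2 p53LOF, 1 transposase UMI was read in 10183 nuclei and 0 in its 2585 GFP-high nuclei. The feature for the 3 prime piggyBac repeat had 19 UMIs in 10 members (14.6 CPM), 36.8% of them in 1 nucleus, and 0 in matched nuclei. Cas9 and the p53 guide had 0 in members, and Trp53 stood at 14.6 CPM against 10.8 in matched nuclei.

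For all other genes, the members were compared with 1340 of the vector-negative nuclei, 10 for each member, nearest in UMIs and in neuronal share (Snap25, Syt1, Rbfox3, Celf4 and Grin2b over all UMIs). A second comparison took 1315 vector-negative nuclei of the same cluster and nearest in UMIs. Both sums are of nuclei from 1 library, and differences are log2 ratios of CPM plus 1. Matching on UMIs and neuronal share left the mix of classes uneven, with 9.03% astrocyte-like, 22.8% cortical glutamatergic-like, 7.84% GABAergic interneuron-like and 4.18% immune-like among the matched nuclei.

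Of 10399 genes compared, 458 were at least 2-fold higher in members than in matched nuclei (4.4%) and 236 at least 2-fold lower (2.27%). Under several other settings, given in the closing section, more genes were lower than higher. Against the same cluster, 217 of 10364 were higher (2.09%) and 115 lower (1.11%). Ribosomal protein and mitochondrial genes were 79 of the 458 and 43 of the 217. Of 13 mitochondrial genes, 12 were at least 2-fold higher in both comparisons, at medians of 1.89 and 1.53. Of 86 ribosomal protein genes, 67 were past 2-fold against matched nuclei and 31 against the same cluster, and 0 were 2-fold or more lower. This set, here and below, is every symbol of Rpl or Rps followed by a digit. It therefore takes in pseudogenes such as Rpl9-ps6 and any S6 kinase gene with such a symbol.

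These RNA classes differed by cell class. Oligodendrocyte-like members had a median of 3.51% ribosomal protein UMIs against 2.03% in nuclei of their cluster, and 0.504% mitochondrial UMIs against 0.211%. In astrocyte-like members the values were 2.89% against 2.08% and 0.509% against 0.2999%, though these members were also deeper than the nuclei of their cluster (a median of 8824 against 3445 UMIs). Striatal projection-like members stood at 1.37% against 1.31% and 0.0843% against 0.0721%, and cortical glutamatergic-like ones at 0.799% against 0.792% and 0.0305% against 0.0289%. The ranges between quartiles overlapped in all 4 classes. The folds rest on summed UMIs and not on medians. In such sums mt-Atp6, a subunit of ATP synthase, stood at 855 against 179 CPM in striatal projection-like members, 213 against 77.5 in cortical glutamatergic-like, 1365 against 751 in astrocyte-like and 2846 against 648 in oligodendrocyte-like ones. With members and vector-negative nuclei limited to at most 0.5% mitochondrial UMIs, 191 genes were at least 2-fold higher and 266 lower in the matched comparison, and 105 were higher and 184 lower against the same cluster, so that more genes were lower than higher under this limit.

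**Figure D3:**
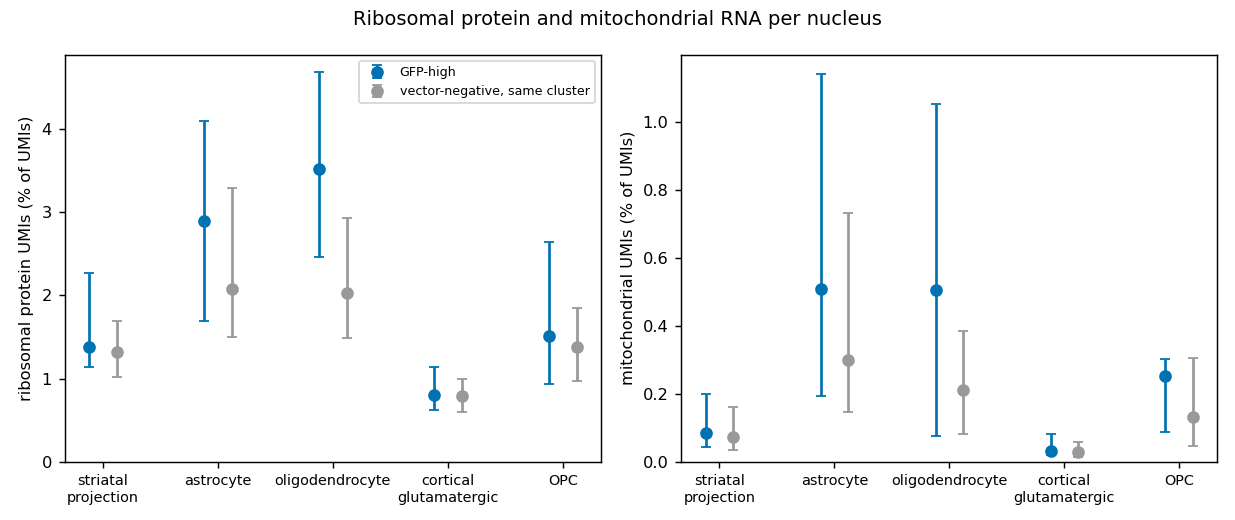
Median share of UMIs from ribosomal protein genes (left) and mitochondrial genes (right) in GFP-high nuclei and in vector-negative nuclei of the same cluster, by class, with bars from the lower to the upper quartile. The medians lay furthest apart in oligodendrocyte-like nuclei (3.51% against 2.03% ribosomal) and were nearly equal in cortical glutamatergic-like nuclei.

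Apart from the mitochondrial genes, the genes highest in members against matched nuclei included several known from glia. Apoe, the lipid carrier made by astrocytes, stood at 2232 CPM in members and 529 in matched nuclei (2.07). Aldoc, a glycolytic enzyme of astrocytes, was at 219 against 55.5 CPM (1.96) and Ndrg2 at 215 against 51.5 (2.04). Vim, an intermediate filament of progenitors and reactive astrocytes, was at 51.4 against 10.7 (2.17). Ccn1, a matrix protein (26.1 against 4.86, 2.21), Slc1a5, an amino acid transporter (16.9 against 2.99, 2.16), Mfsd2a, a lipid transporter (35.3 against 7.76, 2.05), and Fxyd1 (64.4 against 14.8, 2.05) were also among them. Tubb2b, a tubulin of developing neurons, was at 36.8 against 7.76 (2.11), and Icosl, an immune costimulatory ligand, at 16.9 against 2.99 (2.16). Astrocyte-like members held 34 of the 48 Tubb2b UMIs and 17 of the 22 Icosl UMIs of all members. In that class Tubb2b was at 86.1 CPM against 47.0 in vector-negative nuclei of the same cluster, and Icosl at 43.0 against 30.3. Hbb-bs, a globin, was at 32.2 against 6.48 (2.15), and with at most 0.5% mitochondrial UMIs it stood at -0.99. Rpl9-ps6, annotated as a ribosomal pseudogene whose reads may belong to its parent gene, was at 1.94.

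Within the same cluster these differences were smaller. Vim stood at 1.73, Tubb2b at 1.48, Aldoc at 1.33, Ndrg2 at 1.36, Apoe at 1.14, Slc1a5 at 0.95, Ccn1 at 0.77 and Mfsd2a at 0.67. Vim had 60 of its 67 UMIs in 12 of the astrocyte-like members (152 CPM, against 69.9 CPM in nuclei of the same cluster). In summed UMIs, Apoe was higher also in striatal projection-like members, 676 against 160 CPM, and in cortical glutamatergic-like ones, 385 against 74.3 CPM. The nuclei with an Apoe UMI differed less, 28 of 51 against 241 of 510 in the striatal class and 13 of 18 against 90 of 180 in the cortical class. Beside this, the list of 8 astrocyte markers stood at 1292 against 868 CPM in the striatal projection-like members, and the list of 8 oligodendrocyte markers at 674 against 233 CPM, with all 8 markers of each list detected. Of those oligodendrocyte UMIs 73.8% came from 5 nuclei, and 10 of 51 members had 5 or more of them against 41 of 510 nuclei of the same cluster. In the 18 cortical glutamatergic-like members, 4 of them called doublets, the astrocyte list stood at 635 against 409 CPM. Their oligodendrocyte list stood at 314 against 219 CPM. The part of RNA from other cells in these values was not tested. In the astrocyte-like members the astrocyte list was at 6219 CPM against 8977, and the neuron list at 6161 against 5551 CPM. As medians over nuclei, the astrocyte list made up 0.622% against 1.22% and the neuron list 0.416% against 0.133%.

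The genes lowest in members against matched nuclei were read in few members, at most 9 of 134. Kcnmb2, a subunit of large-conductance potassium channels that was among the leading genes of a GABAergic interneuron-like cluster, had 2 UMIs in members (1.53 CPM) against 34.5 CPM (-3.81). Against the same cluster it stood at -2.15, where 47 UMIs of the vector-negative nuclei were in 8 interneuron-like ones and 44 in 5 astrocyte-like ones. Glra2, a glycine receptor subunit (2.30 against 19.96 CPM, -2.67), Cntnap4, a synaptic adhesion protein of interneurons (16.9 against 102, -2.53), Hhip, an inhibitor of hedgehog signalling (0.767 against 12.03, -2.88), and Cemip, a hyaluronan-binding protein (3.07 against 24.7, -2.66), followed. Trabd2b, P3h2, Vwc2l, 6330411D24Rik and Gm49678 lay between -2.87 and -2.30. The matched nuclei held 7.84% GABAergic interneuron-like nuclei and the members 0.746%. They also held 22.8% cortical glutamatergic-like nuclei against 13.4% in the members, and Trabd2b was among the leading genes of a cluster of that class. All 10 of these genes were also below 0 against the same cluster, from -2.76 for Hhip to -0.50 for Trabd2b. For Hhip, 34 UMIs of those vector-negative nuclei were in 1 interneuron-like nucleus.

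Lowest against the same cluster were Gm33906 and Gm13974, both at -2.17, Setdb2, a histone methyltransferase gene (12.3 against 52.6 CPM, -2.01), Taf1a, a subunit of the RNA polymerase I initiation factor (4.601 against 20.7, -1.96), and Abtb2 (-1.74). Setdb2 was lower in astrocyte-like members (5.06 against 110 CPM, in 2 of 37 nuclei) and in oligodendrocyte-like ones (49.9 against 496 CPM, in 1 of 20) but not in cortical glutamatergic-like ones (16.9 against 11.1). C1qa, a complement gene of microglia, was among the highest, at 31.4 against 8.87 CPM (1.72), and stood at 27.4 against 3.17 CPM in striatal projection-like members, where 6 of 51 had a UMI. The list of 8 immune markers stood there at 149 against 93.8 CPM, with 1 marker at 0. Nupr1, a stress-response regulator, was at 10.7 against 2.89 CPM (1.59).

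**Figure D4:**
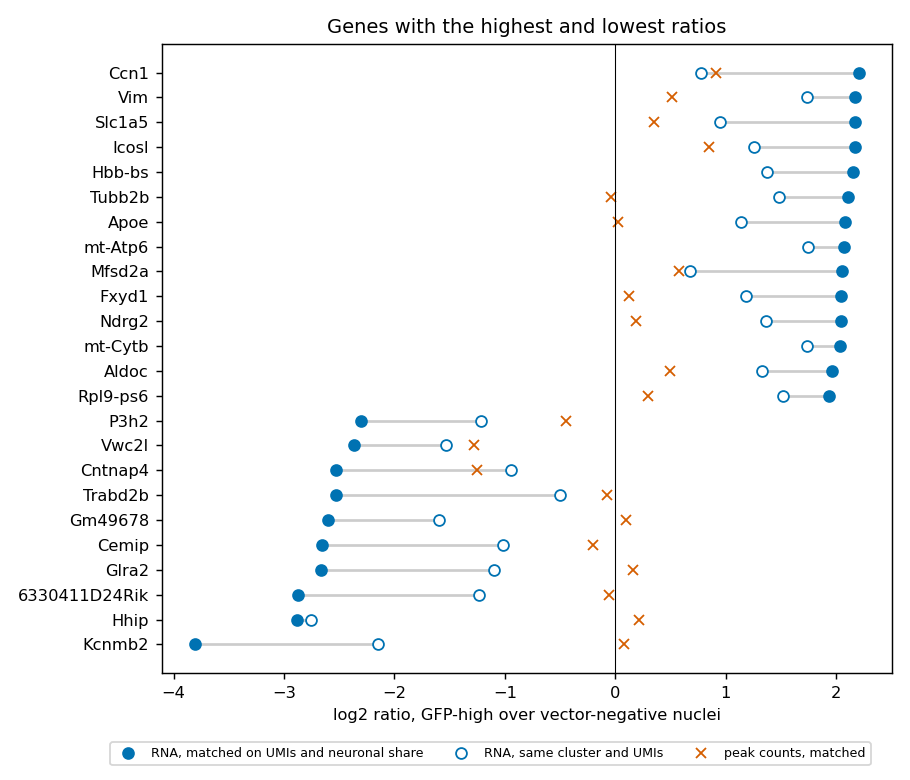
Log2 ratios of the genes named from the comparison with matched nuclei (Foxr2 left out) in GFP-high over vector-negative nuclei, as RNA against the matched nuclei (filled), RNA against the same cluster (open) and peak counts within 2 kb of the gene against the matched nuclei (crosses, where the gene had a peak). For these genes, which were chosen by the filled values, all open points lie on the same side of 0 as the filled ones and nearer to 0. Genes named from the comparison within the cluster alone are not drawn, and the crosses other than those of Vwc2l and Cntnap4 lie between -0.45 and 0.91.

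Open chromatin gave a second readout of the same genes. Counts in peaks that overlap a gene or lie within 2 kb of it were summed and scaled to the total peak counts of each group. Of the 11 genes named as higher that had a peak, 10 had more peak counts in members (median log2 ratio 0.35, highest 0.91 for Ccn1), against 52.5% of 10102 genes compared. Of the 10 named as lower, 4 had a ratio over 0, with Vwc2l at -1.28 and Cntnap4 at -1.25. The value of Vwc2l rests on 4 counts in 2 members. Of the genes named from the same-cluster comparison, 3 of 4 higher and 3 of 5 lower ones were over 0 there, and the background was 51.1%. Genes of both backgrounds had at least 10 peak counts, scaled to a group total of 1000000, in 1 group. Named genes were not held to this minimum. Rpl9-ps6, Vim, Glra2, Gm49678 and Vwc2l (matched) and Vim and C1qa (same cluster) were under it. The named genes and the background are therefore not at a like threshold. Among single peaks, 8:90741278-90742156, 503 bases from Gm35850, was the highest in both comparisons, with 32 counts in 10 members, 27 in 13 matched nuclei and 52 in 21 nuclei of the same cluster. The peak 17:63163825-63164678, within Fbxl17, had 0 counts in members and 174 in 81 matched nuclei, where a count of 0 covers 134 nuclei only.

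Of the 15 gene lists, 4 had a gene past 2-fold against matched nuclei. The background in that comparison is the 4.4% and 2.27% above. In the activity-induced list, 2 of 6 compared genes were past 2-fold, the immediate-early transcription factors Egr4 (15.3 against 6.57 CPM, 1.11) and Egr1 (25.3 against 12.03, 1.01), while Homer1 stood at -0.05 and Inhba at -0.71. Of 18 potassium channel genes, 4 were past 2-fold lower, Kcnip1 (-1.69), Kcnc2 (-1.41), Kcnb2 (-1.09) and Kcnj6 (60.6 against 122 CPM), at a list median of -0.46. Grik1, a kainate receptor subunit, was the 1 of 13 glutamate receptor genes past 2-fold (-1.14). The 12 GABA-A receptor genes had a median of -0.30. Of genes bound by Foxr2 in the study, 8 could be compared, and Sox9, a glial transcription factor, was higher (23.8 against 6.06 CPM, 1.81) and Nxph1 lower (-1.23). Nxph1 turned to 0.89 against the same cluster, with 57.9% of the members' UMIs in 1 nucleus, and Sox9 stood at 0.78. Across all genes the median was -0.01. Against the same cluster, 0 genes of any list were past 2-fold.

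The other 11 lists had 0 genes past 2-fold. The list of p53 targets had 13 genes that could be compared, with a median of 0.20 and 0 past 2-fold. Cdkn1a, the cell cycle inhibitor, was at 60.6 against 41.5 CPM (0.54), Bax at 0.82 and Mdm2 at -0.01. Of the proliferation list, Mki67 had 5 UMIs in 5 members and Top2a 2 in 1 member, and only Hmgb2 (0.99) and Prc1 (0.17) were abundant enough to be compared. Immature neuron genes had a median of 0.03, from Dcx at -0.83 to Sox4 at 0.94. The 7 heat shock genes had a median of 0.51, the 3 interferon response genes of 0.31, the 3 oncofetal genes of -0.52, the 5 pallial factors of -0.09, the 10 ETS genes of -0.03 and the 6 MYC network genes of 0.11. Of the ganglionic eminence factors, Dlx6 (0.62) and Sox6 (-0.43) could be compared, while Lhx6, the factor of interneurons from the medial eminence, and Nkx2-1 had 1 UMI each.

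Shares of RNA and of peak counts per chromosome were close to those of matched nuclei. Peak counts lay between -0.02 and 0.03 on the log2 scale on all 20 chromosomes. RNA of chromosome 17 was at 0.21 in both comparisons, the furthest from 0 of any chromosome, while its peak counts were at 0.02 and 0.01.

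Foxr2 p53LOF, under the same rule, had 2585 GFP-high nuclei among 10183. At least 1 GFP UMI was read in 6167 of its nuclei, against 753 of 10063 in Foxr2 alone. No background share of GFP is given for p53LOF, so the same rule need not select like nuclei. Genotype and library cannot be told apart here, and the values are given side by side. Foxr2 RNA stood at 69.8 CPM [56.2, 85.7] in the 134 members and at 75.2 [72.7, 77.6] in the 2585 nuclei, and GFP at 765 and 693 CPM. Foxr2 was read in 38.1% of members and 54.3% of the p53LOF nuclei, and 1 member called a doublet gave 22.0% of the members' Foxr2 UMIs. The p53LOF nuclei were deeper, at a median of 11207 UMIs against 6780 in members. Shares of nuclei with a UMI, here and for Mki67 below, are therefore not at equal depth. GFP chose both groups and lies on the Foxr2 transcript, so these levels are descriptions. Akaluc was at 173 and 336 CPM. Mki67, a marker of cycling cells, was read in 3.73% of members and 27.7% of the p53LOF nuclei (3.83 and 81.0 CPM), and Top2a at 1.53 and 142 CPM. Hmga2, an oncofetal chromatin protein, had 0 UMIs in members, with an exact Poisson interval that ends at 2.83 CPM, and 829 CPM in p53LOF, and Ets1 had 0 UMIs and 38.3 CPM. As sums, the oncofetal list was at 492 and 1381 CPM and the ETS list at 304 and 1327. Other genes of these lists were higher in members, among them Lin28b (146 and 30.7 CPM), Peg3 (311 and 232), Ets2 (39.1 and 15.3) and Elk1 (25.3 and 12.3). Of the Sox factors, Sox11 was at 31.4 and 280 CPM, Sox6 at 78.2 and 1036, Sox9 at 23.8 and 58.2 and Sox10 at 9.20 and 103. Cdkn1a was also higher in members, at 60.6 and 22.9 CPM, as was Dlx6 (20.7 and 0.0207), while Mdm2 was at 67.5 and 144. As lists, OPC markers summed to 727 and 3920 CPM, interferon response genes to 118 and 3190, and neuron markers to 9496 and 2552. The matched nuclei and the vector-negative nuclei of Foxr2 p53LOF also differed, at 870 and 1394 CPM for OPC markers and 101 and 1340 for interferon response genes. Neuron markers stood at 12182 and 13292 CPM in them. In Foxr2 p53LOF, where the vectors had 2 peaks, 29.4% of GFP-high nuclei had counts in them against 1.28% of vector-negative nuclei.

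**Figure D5:**
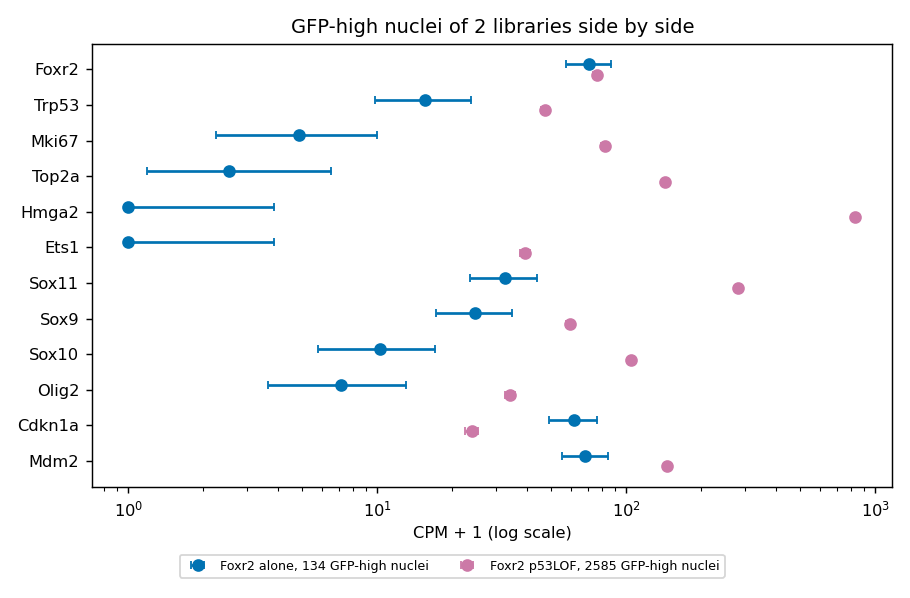
CPM plus 1 of 12 genes, on a log axis, in the GFP-high nuclei of Foxr2 alone and of Foxr2 p53LOF, with exact Poisson 95% intervals. Foxr2 was at 69.8 and 75.2 CPM in nuclei chosen by GFP, which lies on its transcript. Hmga2 and Ets1 had 0 UMIs in Foxr2 alone, and Cdkn1a was the only gene shown that was higher there.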

How the data were processed

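Nuclei were read with the 10x Multiome assay. The authors ran Cell Ranger ARC 2.0.0 on mm10 with vector sequences added, which called cells and peaks per library, and deposited raw counts (gene UMIs, and transposition events in peaks) without normalization. Foxr2 alone replicate 1 and Foxr2 p53LOF replicate 1 were used, and counts of Foxr2 alone replicate 2 were not analysed here. Nuclei prepared from frozen tissue hold little cytoplasmic RNA. Barcode names shared between libraries numbered 140, 34 and 19, and 0 were names of members.

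The members, the gene lists and the comparisons were chosen with earlier results of these data known. Clusters came from scanpy 1.11.5 (2000 variable genes without vector features and listed genes, 30 components, 20 neighbours, Leiden resolution 0.5), and doublets were called with its Scrublet at an expected 8% and kept. A cluster was named from at least 3 markers, a median log2 fold of at least 1 and a lead of 0.75 over other classes. Outside the striatal projection, cortical glutamatergic and GABAergic interneuron classes, the cluster's 10 leading genes also had to hold a marker of the class. For glial classes a marker of any glial class was enough. These naming limits were set after the data were seen. Each member was set against 10 nuclei without replacement, and within clusters 25 of these nuclei were lacking. Summed UMIs were given as CPM. Genes with at least 10 CPM in 1 group and 20 UMIs over both were compared on log2(CPM + 1) and counted past 2-fold. Named genes were the 15 highest and 10 lowest (matched) and the 10 highest and 5 lowest (same cluster) in at least 5 members where higher or 5% of the other nuclei where lower, with at most 25% of UMIs from 1 nucleus. All listed genes could also be named, and so could the 5 highest and 5 lowest peaks with at least 30 counts from 10 nuclei. Which named genes are given by class was chosen after their values were seen. The fold code was tested on simulated data. Poisson and Clopper-Pearson intervals (95%) used scipy 1.17.1. With counts of 1 library per genotype in use, no test was made.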

Additional observations from a re-analysis of the deposited data

Results flagged for a closer look

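RNA of the piggyBac transposase lies outside the rule that chose the members and outside the planned comparisons of genes. It was read at 186 CPM in the 134 GFP-high nuclei against 1.02 CPM in the 1340 matched nuclei, with 220 of its 243 UMIs in the 18 cortical glutamatergic-like members. The feature for the 3 prime piggyBac repeat was read at 14.6 CPM in members and had 0 UMIs in matched nuclei. Its 19 UMIs were under the 20 needed for a comparison, and 36.8% of them were in 1 nucleus. Matched nuclei were chosen for lacking RNA of GFP, Akaluc and Foxr2, so its absence there is a description.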

How the results depend on the processing

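Counts of 1 Foxr2 alone library were used, so no replicate could be left out. No paired analysis was possible because the groups compared are nuclei of 1 library. Alternatives for vector and Foxr2 chromatin were not run, since this library had no peak there. Of the summary results, 121 values stayed within their limits and 59 moved. Values of the named genes against matched nuclei stayed in 264 cases, moved in 94 and changed sign in 2, and those against the same cluster stayed in 62, moved in 17 and changed sign in 5.

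Counts of genes higher and lower than in matched nuclei (458 and 236) moved to 261 and 107 with at least 2 GFP UMIs, 217 and 115 within the same cluster, 302 and 122 with a pseudocount of 5, and 81 and 105 with UMIs and mitochondrial share matched within the cluster. The number higher became 293 with at least 800 peak counts, 191 with at most 0.5% mitochondrial UMIs (266 lower), 741 matched on UMIs only and 298 for members with a UMI of Foxr2 or Akaluc (320 lower). The number lower became 431 with at least 5 GFP UMIs (480 higher), 372 without called doublets, 436 under the limits of the study (306 higher), 502 as a mean of CPM per nucleus (457 higher) and 876 without the CPM minimum (609 higher). Against the same cluster (217 and 115), at least 2 GFP UMIs gave 115 and 45, no called doublets 411 and 197, and at most 0.5% mitochondrial UMIs 105 and 184. At least 5 GFP UMIs gave 271 higher and 296 lower, at least 800 peak counts 133 higher, and mitochondrial matching 81 higher.

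Lists past 2-fold moved by a few genes. The activity-induced list (2) went to 0 with at least 2 GFP UMIs, without doublets, within the cluster and as mean CPM, and to 1 with at least 5 GFP UMIs and with mitochondrial matching. Genes bound by Foxr2 (2) went to 1 with at least 2 GFP UMIs and to 0 within the cluster and with mitochondrial matching. Glutamate receptors (1) went to 0 with at least 2 GFP UMIs, without doublets, within the cluster and with mitochondrial matching, and to 3 with at least 5. Potassium channels (4) went to 0 within the cluster and with mitochondrial matching, and to 2 as mean CPM. From 0, the ETS family went to 2 as mean CPM, and ganglionic eminence, immature neuron, proliferation, p53 target and GABA-A receptor lists went to 1 under some of these settings.

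The astrocyte-like share of members (27.6%) was 20.2% without doublets, 17.9% at resolution 1.0 and 20.2% with at most 0.5% mitochondrial UMIs. The interneuron-like share was 0% with at least 5 GFP UMIs and under the limits of the study. With at most 0.5% mitochondrial UMIs, Hbb-bs (-0.99) and mt-Cytb (-0.0412) changed sign against matched nuclei, and mt-Atp6 (-0.0111), mt-Cytb (-0.0821), mt-Nd3 (-0.36), mt-Nd2 (-0.13) and mt-Co3 (-0.15) against the same cluster. These mitochondrial genes are part of the share that was limited, so their values under it are no check of their difference. The settings on mitochondrial share and peak counts were chosen after seeing the data. The cause of these shifts was not tested.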
